A study of Mus musculus with 18 samples.

Results

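The autophagy and mTOR control genes are 41 genes, taken by symbol, that code for the core machinery of autophagy, for its cargo receptors, for Foxo1 and Foxo3, and for the kinase mTOR with its partner Raptor and its inhibitors Tsc1 and Tsc2. All 41 were among the 51912 genes counted, and all 41 passed the filter that kept 24495 genes for testing.

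Autophagy is the route by which a cell wraps part of its own cytoplasm in a membrane and delivers it to the lysosome. The Ulk1 kinase complex starts the process, the class III PI3-kinase makes the lipid that marks the growing membrane, and Atg9a, Atg2 and Wipi proteins supply and read that membrane. A conjugation chain of Atg7, Atg3, Atg10, Atg5, Atg12 and Atg16l1 attaches the small Atg8 proteins to it, and receptors such as Sqstm1 (p62) tie cargo to Atg8. In fed cells mTOR complex 1 phosphorylates Ulk1 and Atg13 and holds autophagy back, while the Tsc1 and Tsc2 proteins restrain mTOR. Foxo1 and Foxo3 are transcription factors that act when insulin and Akt signalling is low, and TFEB and its relatives drive lysosome and autophagy genes. In astrocytes, autophagy clears damaged mitochondria and protein aggregates.

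The libraries came from primary cortical astrocyte cultures of transgenic mice (Aldh1l1-EGFP/Rpl10a, line JD130Htz, on a mixed B6 and FVB background), which express the EGFP-tagged ribosomal protein L10a from the Aldh1l1 promoter. All cultures were made from cortices at postnatal day 0, from males and females in equal number, and all dishes spent 24 h without serum before treatment. The IP fraction (RNA pulled down with tagged ribosomes by TRAP) was sequenced from 6 dishes given control medium (0 mM ethanol) and 6 given 50 mM ethanol, each for 24 h and still without serum. The input fraction (RNA of the whole lysate) was sequenced from 3 of the control and 3 of the ethanol dishes, numbered 4 to 6 in each treatment. The tag follows the Aldh1l1 promoter, so cells that do not use it contribute to the input and, ideally, not to the IP. The replicates are dishes, and the labels do not say whether they came from separate cultures, so p-values measure the spread between these dishes. Serum withdrawal is shared by control and ethanol dishes, and no library came from fed cells.

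Libraries held 74239854 to 132810705 read pairs on genes, with a median of 84119135. Of 12 astrocyte markers, 9 were higher and 1 was lower in IP than in input, while 11 of 12 microglia markers were lower in IP. The astrocyte markers *Gjb6* and *S100b* were near 0 in IP, at means of 0.0411 and 2.52 CPM (TMM-normalized read counts). Of 12 neuron markers, 6 were higher and 2 lower in IP than in input, and of 12 oligodendrocyte lineage markers 6 and 4. Endothelial and mural markers gave 4 and 5 of 11, and fibroblast and meningeal markers 4 and 6 of 12. Fibroblast and meningeal markers were abundant in both fractions. They summed to 8843 to 9992 CPM over the 12 IP libraries and 6449 to 7202 CPM over the 6 input libraries. The median log2 fold change of these 12 markers, IP against input, was -0.67, so the higher sum in IP does not stand for the list. Those called higher in IP were *Col1a2*, *Foxc1*, *Igfbp2* and *Pdgfra*. In cultures with several cell types, fewer cells of a type and less RNA per cell cannot be told apart.

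Per unit of transcript length, the most abundant genes were Atg8 genes and cargo receptors, at the receiving end of the pathway. Levels per length are given as FPKM, computed from the CPM and the longest annotated transcript, as mean ± SD of the 6 IP control libraries. *Sqstm1* had the highest level at 563 ± 14.1 FPKM, and *Gabarap*, which codes for an Atg8 protein, followed at 263 ± 7.90. *Gabarapl1* stood at 141 ± 3.17, the cargo receptor *Calcoco1* at 109 ± 1.99 and *Map1lc3b*, which codes for the LC3B protein used as an autophagosome marker, at 102 ± 0.961. The initiation genes lay well below these, with *Atg101* at 26.0 ± 1.06, *Atg13* at 21.5 ± 0.609, *Ulk1* at 14.8 ± 0.444, *Ulk2* at 13.9 ± 0.380 and *Rb1cc1* at 8.19 ± 0.356. The cargo receptor *Optn*, at 18.2 ± 0.396, was an exception and lay below *Atg101* and *Atg13*. *Mtor* had 7.75 ± 0.148 FPKM and *Rptor*, the gene of Raptor, 13.3 ± 0.267. On this length the lowest levels were those of *Foxo1* (6.90 ± 0.182), *Atg2b* (5.29 ± 0.177) and *Atg4d* (1.98 ± 0.104). Levels depended on the length used: on the merged exons of each gene, 17 of the 41 were over 1.5 times lower, among them *Calcoco1* (56.3 FPKM), *Map1lc3b* (55.9), *Rptor* (6.51), *Rb1cc1* (4.24) and *Atg16l1* (3.41, from 8.76). *Foxo1* kept 6.90 FPKM on merged exons and then had 10 genes below it instead of 2, so the order of the low levels is not fixed. Pairs that overlap another gene were left out of the counts. The unstranded count of *Becn1*, which overlaps *Cntd1*, was 61.8% of its count on its own strand, and that of *Gabarapl1* was 75.1%.

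**Figure D1:**
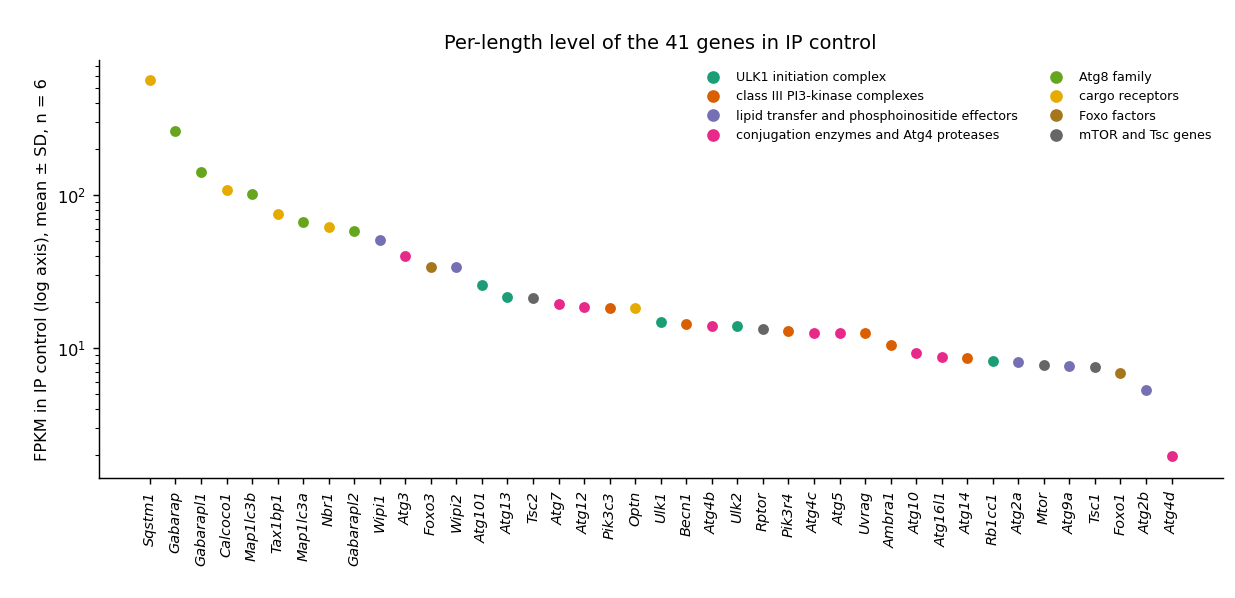
Per-length level (FPKM, log axis) of each of the 41 genes in the IP control libraries, in descending order. Points are means of 6 libraries and bars are SD, most of them smaller than the point, and colors give the role, with *Sqstm1* highest at 563 FPKM and *Atg4d* lowest at 1.98 FPKM.

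Ethanol raised part of this machinery in the IP fraction by small amounts. Of the 41 genes, 16 were higher and 1, *Atg3*, was lower after ethanol (edgeR's quasi-likelihood test, Benjamini-Hochberg adjusted p below 0.05 over all 24495 genes). Over all genes tested, 11.9% were called higher and 9.48% lower. Every member is well expressed, and among the 9352 genes at or above the mean level of the least abundant member, *Atg4d* (11.8 CPM), 23.8% were called higher and 18.1% lower. The 41 genes stood at 39.0% higher and 2.44% lower. They were chosen with earlier results of these data known, so this contrast describes the list and is not independent evidence. Their median log2 fold change was 0.05, against 0.01 over those 9352 genes, and 32 of the 41 had a positive value. In 13 genes all 6 ethanol libraries lay above all 6 control libraries and in 0 genes all lay below, where 5.09% and 4.87% of all genes did so. This share was computed over all genes tested and not over the 9352, so expression level is not matched in it. The largest rise, that of *Ulk1*, was 12.9%.

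**Figure D2:**
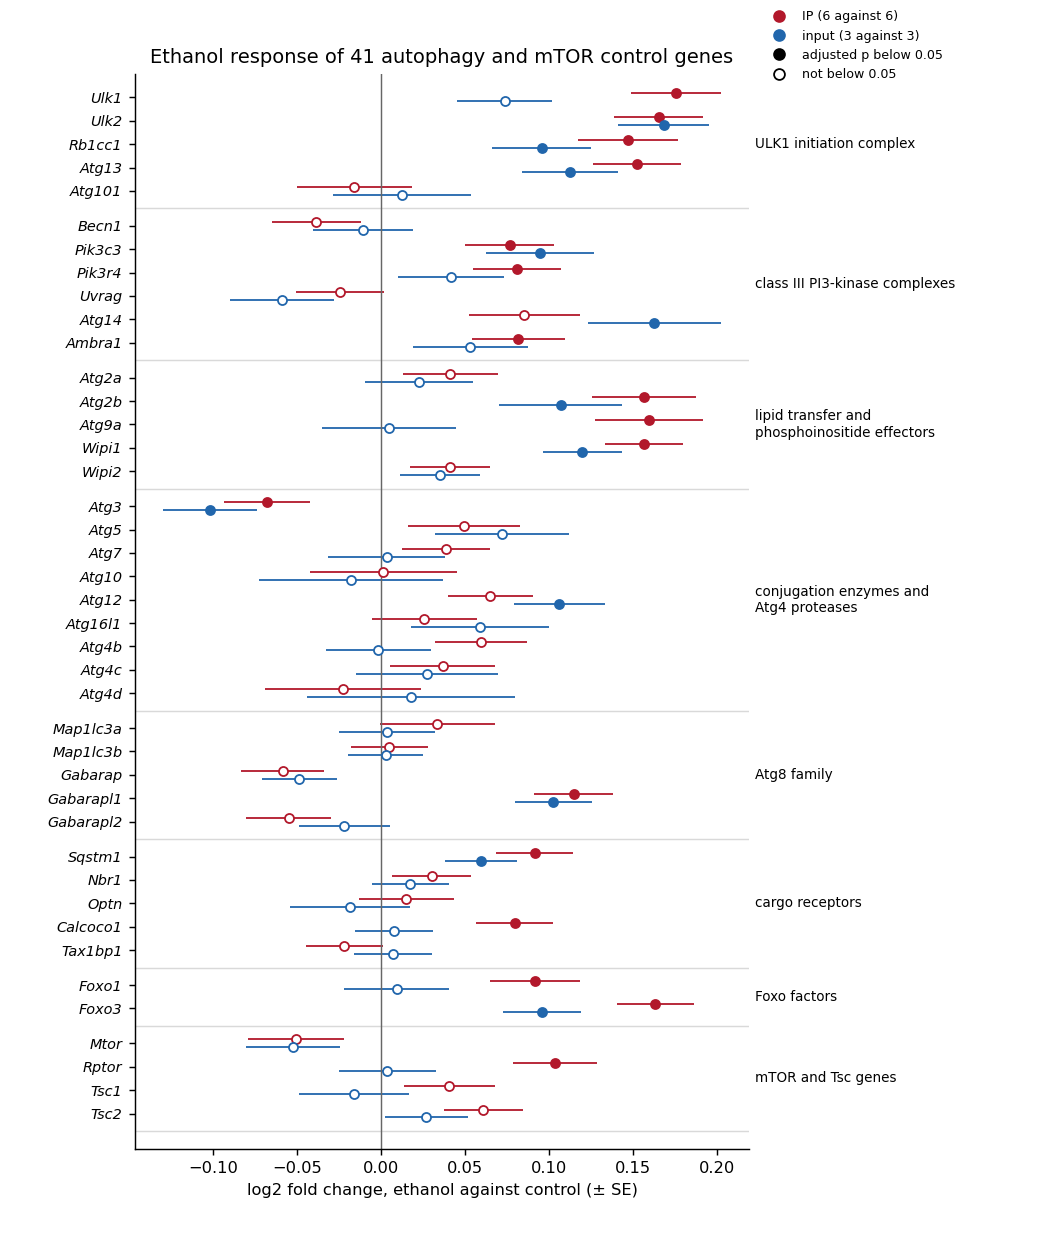
Log2 fold change (x axis, ethanol against control, ± SE) of the 41 genes, grouped by role, in IP (red, 6 against 6 libraries) and input (blue, 3 against 3). Filled points have an adjusted p below 0.05. In IP, 4 of 5 initiation genes were filled to the right, while *Atg3* was the gene filled to the left in both fractions.

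Of the 5 genes of the initiation kinase complex, 4 were higher in IP. *Ulk1*, the kinase that starts autophagy, had a lowest, median and highest level of 73.4, 77.3 and 79.7 CPM in IP control and of 82.0, 86.5 and 90.4 CPM in IP ethanol. No ethanol library overlapped the controls, and *Ulk1* rose by 0.18 ± 0.03 (log2 fold change ± SE, edgeR adjusted p = 5.92e-07). *Ulk2*, its close relative, went from 78.0, 78.9 and 83.8 to 86.2, 88.4 and 93.9 CPM, again without overlap, a log2 change of 0.17 ± 0.03 (edgeR adjusted p = 1.65e-06). *Atg13*, the subunit through which nutrient signals reach the complex, had 75.3, 76.9 and 81.0 CPM in IP control and 83.9, 85.3 and 90.4 in IP ethanol. The groups did not overlap, and its log2 change was 0.15 ± 0.03 (edgeR adjusted p = 7.34e-06). *Rb1cc1*, which codes for the large scaffold FIP200, had 58.9, 62.6 and 66.6 CPM against 64.8, 68.2 and 73.3 CPM. Here the groups overlapped, since the highest control exceeded the lowest ethanol library, and the log2 change was 0.15 ± 0.03 (edgeR adjusted p = 0.000124). *Atg101*, the stabilizing partner of Atg13, had 33.1 ± 1.34 CPM in IP control and 32.6 ± 1.74 in IP ethanol (SD, n = 6) and did not pass the test (edgeR adjusted p = 0.822).

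Promoter windows are shown for 4 genes: *Ulk1* and *Ulk2*, called higher in IP, *Atg3*, called lower, and *Atg14*, called higher in input alone. *Ulk2* was called higher in input as well, and the responses of the 4 genes were not tested against each other. Each sequence is from RefSeq (GRCm38.p6), runs 5′ to 3′ on the strand of the gene and covers 250 bases before to 50 after the start site of a RefSeq transcript. *Ulk1* is at chr5:110810032-110810331 and *Ulk2* at chr11:61855043-61855342, both on the minus strand, *Atg3* at chr16:45158579-45158878 on the plus strand and *Atg14* at chr14:47568385-47568684 on the minus strand. Capitals mark the CLEAR core GTCACGTG, the motif TFEB is known to bind, in either orientation.
Ulk1: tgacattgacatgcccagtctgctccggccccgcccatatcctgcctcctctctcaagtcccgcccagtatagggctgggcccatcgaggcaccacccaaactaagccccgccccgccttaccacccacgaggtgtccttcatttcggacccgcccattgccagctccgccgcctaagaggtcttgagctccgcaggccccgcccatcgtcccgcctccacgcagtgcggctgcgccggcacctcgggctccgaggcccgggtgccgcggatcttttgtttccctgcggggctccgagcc
Ulk2: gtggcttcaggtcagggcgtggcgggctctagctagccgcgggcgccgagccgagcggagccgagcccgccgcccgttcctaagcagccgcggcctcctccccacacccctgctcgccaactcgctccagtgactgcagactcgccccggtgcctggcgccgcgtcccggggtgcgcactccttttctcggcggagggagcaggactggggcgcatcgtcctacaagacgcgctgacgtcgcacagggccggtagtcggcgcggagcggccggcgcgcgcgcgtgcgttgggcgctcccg
Atg3: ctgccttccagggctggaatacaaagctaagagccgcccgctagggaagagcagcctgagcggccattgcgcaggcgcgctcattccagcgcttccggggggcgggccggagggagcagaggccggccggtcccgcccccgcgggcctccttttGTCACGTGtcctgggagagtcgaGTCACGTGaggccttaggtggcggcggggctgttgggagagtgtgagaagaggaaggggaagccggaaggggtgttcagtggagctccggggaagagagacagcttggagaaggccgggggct
Atg14: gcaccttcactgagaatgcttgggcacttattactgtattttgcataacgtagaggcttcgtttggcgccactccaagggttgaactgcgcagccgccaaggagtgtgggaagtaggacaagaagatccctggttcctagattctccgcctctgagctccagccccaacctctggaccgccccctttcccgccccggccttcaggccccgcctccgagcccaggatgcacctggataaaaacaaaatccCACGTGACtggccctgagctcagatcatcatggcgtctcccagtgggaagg

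*Atg3* held the CLEAR core at 2 places, with the first base 96 and 73 bases before the start site, and *Atg14* held it across the start site. The search covered both strands of the windows of 35 of the 41 genes for 4 motifs: the E-box CACGTG, the CLEAR core, which contains an E-box, the Foxo motif GTAAACA and the cAMP response element TGACGTCA. The CLEAR core was in 3 of the 35 genes (*Atg3*, *Atg7* and *Atg14*), or 8.57%, against 2.55% of all 27025 genes with a window. The *Atg7* window does not lie at the start of the annotated gene: its start site is 27999 bases inside the GENCODE gene, and that of *Atg14* is 2215 bases inside. Those of *Atg4b* and *Wipi2* also lay more than 1000 bases inside their genes. The E-box was in those 3 and in *Atg5*, or 11.4%, against 8.09% of all genes. None of the 35 windows held the Foxo motif, which 4.05% of all genes had, and *Atg5* alone held the cAMP response element, against 2.03%. Of the 14 searched genes that were called higher in IP, 0 held any of the 4 motifs. These are matches of letters in a short window and not binding sites. The 38 windows of these 35 genes had a median GC content of 60.6%, against 52.7% over all windows.

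**Figure D3:**
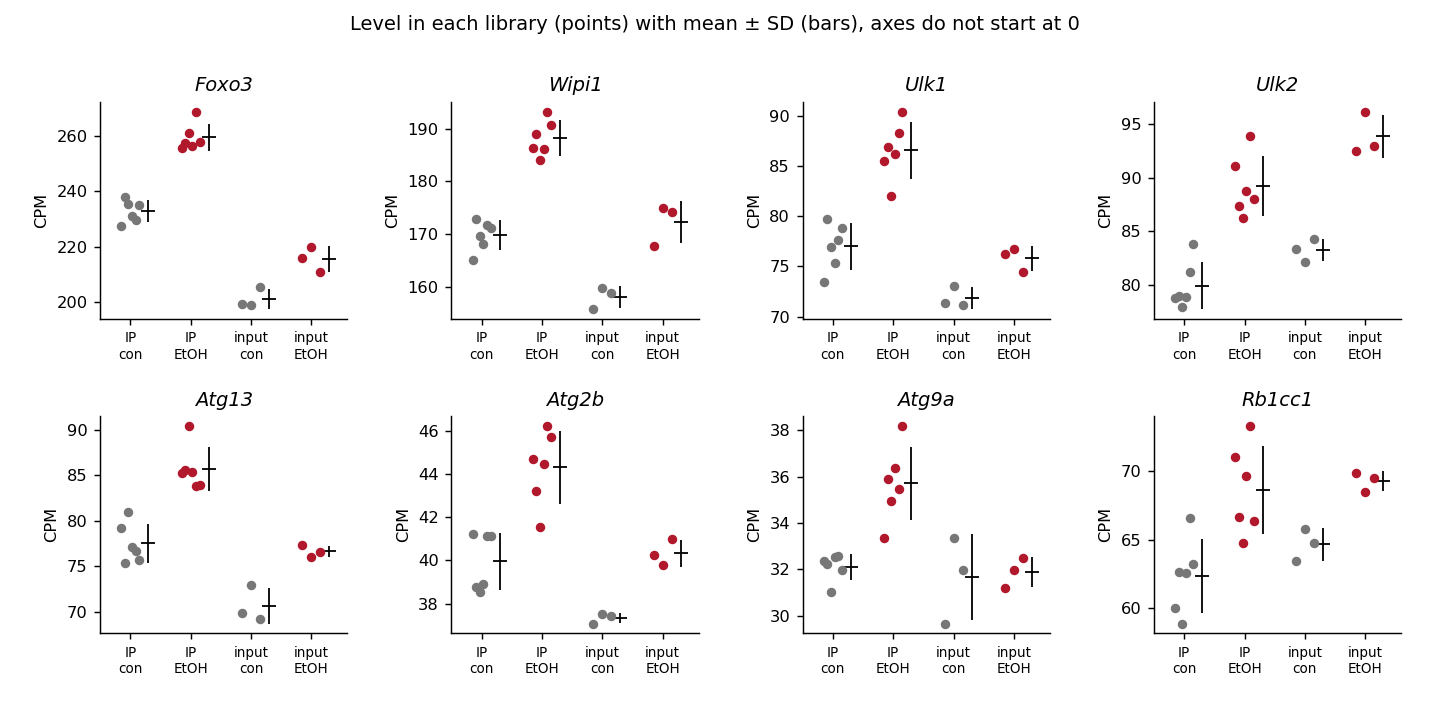
CPM in each library (points) of the 8 genes with the smallest adjusted p for ethanol in IP, with mean and SD beside them. Gray is control and red is ethanol (EtOH), in IP (6 libraries each) and input (3 each), on axes that do not start at 0. In IP, *Rb1cc1* is the gene of the 8 in which ethanol and control points overlap.

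The class III PI3-kinase, which makes phosphatidylinositol 3-phosphate, showed smaller changes. The 3 of its 6 genes that passed the test were the catalytic *Pik3c3*, its regulatory subunit *Pik3r4* and *Ambra1*, which links the complex to Ulk1 and to ubiquitin ligases. *Pik3r4* had 61.5, 63.8 and 64.9 CPM in IP control and 64.9, 66.9 and 68.3 CPM in IP ethanol (lowest, median and highest), which touched without overlapping. Its log2 change was 0.08 ± 0.03 (edgeR adjusted p = 0.0178), that of *Ambra1* was 0.08 ± 0.03 (0.0247) and that of *Pik3c3* was 0.08 ± 0.03 (0.0288). These calls lay near the threshold, and each was lost in several of the fits that left out 1 library. *Pik3r4* lost its call without IP control 2, 3 or 4 or IP ethanol 2 or 4, with an edgeR adjusted p of up to 0.105. *Ambra1* lost it without IP control 1, 4 or 6 or IP ethanol 2 (up to 0.159), and *Pik3c3* without IP control 1, 2, 4 or 6 or IP ethanol 2, 3 or 6 (up to 0.11). *Atg14*, which directs the kinase to autophagosomes, stood at 0.09 ± 0.03 with an edgeR adjusted p of 0.0539. *Becn1*, the Beclin 1 scaffold, and *Uvrag*, which belongs to an alternative complex, had negative values of -0.04 ± 0.03 and -0.02 ± 0.03 and did not pass the test.

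Genes that bring and read membrane lipid again included some of the clearest rises. *Wipi1*, which binds the lipid made by the class III kinase, had 165.1, 170.4 and 172.8 CPM in IP control and 184.0, 187.7 and 193.2 CPM in IP ethanol, with no overlap. Its log2 change was 0.16 ± 0.02 (edgeR adjusted p = 3.41e-07). *Atg2b*, which codes for a lipid transfer protein, went from 38.6, 40.0 and 41.2 CPM to 41.5, 44.6 and 46.2 CPM, so that the highest control lay just under the lowest ethanol library. The log2 change of *Atg2b* was 0.16 ± 0.03 (edgeR adjusted p = 8.25e-05). *Atg9a*, the transmembrane scramblase whose vesicles seed the autophagosome, had 31.1, 32.3 and 32.6 CPM against 33.4, 35.7 and 38.2 CPM, without overlap, a log2 change of 0.16 ± 0.03 (edgeR adjusted p = 0.000108). Their paralogs *Wipi2* and *Atg2a* stood at 0.04 ± 0.02 and 0.04 ± 0.03 and did not pass the test (edgeR adjusted p = 0.255 and 0.353), and the difference between paralogs was not tested.

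Of the 9 genes of the conjugation enzymes and Atg4 proteases, 0 passed the test as higher in IP and 1 as lower. *Atg3*, the E2-like enzyme that hands Atg8 proteins to lipid, had 81.6, 83.4 and 85.0 CPM in IP control and 76.8, 78.9 and 83.1 CPM in IP ethanol, with overlap. Its log2 change was -0.07 ± 0.03 (edgeR adjusted p = 0.0484), and the call was lost without any of IP control 3, 4 or 5 or IP ethanol 4, 5 or 6, with an adjusted p of up to 0.117. The other 8 genes did not pass the test. *Atg12*, a ubiquitin-like protein, came nearest at 0.07 ± 0.03 (edgeR adjusted p = 0.0594), followed by the protease *Atg4b* at 0.06 ± 0.03 (0.122). The E1-like enzyme *Atg7* stood at 0.04 ± 0.03, *Atg5* at 0.05 ± 0.03, *Atg16l1* at 0.03 ± 0.03, *Atg4c* at 0.04 ± 0.03, the E2-like *Atg10* at 0.00 ± 0.04 and *Atg4d* at -0.02 ± 0.05. For *Atg7*, 31.1% of the pairs in the strand-specific counts lay on the opposite strand. Its unstranded count was 124.8% of that on its own strand, so its value is less certain. For *Atg4d*, which overlaps *Kri1*, the opposite strand held 59.3%, but the unstranded count was 88.7% of that on its own strand. Pairs that overlap both genes were left out, and on its own strand *Atg4d* had -0.02 ± 0.04.

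Among the Atg8 genes, *Gabarapl1*, which is also known as a Foxo target, was the gene that rose. It had 248, 258 and 263 CPM in IP control and 264, 280.1 and 287 CPM in IP ethanol, with no overlap, a log2 change of 0.11 ± 0.02 (edgeR adjusted p = 0.000157). *Map1lc3b* had 420.3 ± 3.98 CPM in IP control and 419.6 ± 13.1 CPM in IP ethanol (SD, n = 6), a log2 change of 0.00 ± 0.02 (edgeR adjusted p = 0.927). *Map1lc3a* had 0.03 ± 0.03, while *Gabarap* and *Gabarapl2* had negative values of -0.06 ± 0.02 and -0.06 ± 0.03 (edgeR adjusted p = 0.085 and 0.119). *Gabarap* passed the test as lower in 11 of its 22 alternatives and *Gabarapl2* in 2 of 22, while with GC content and length taken out both stood at -0.01. Of the 5 cargo receptors, *Sqstm1* and *Calcoco1* were higher. *Sqstm1*, whose protein binds ubiquitin and Atg8, had 1470.0, 1495 and 1560.0 CPM in IP control and 1505, 1610.0 and 1653 CPM in IP ethanol, with overlap, a log2 change of 0.09 ± 0.02 (edgeR adjusted p = 0.00195). *Calcoco1*, a receptor for ER and Golgi fragments, rose by 0.08 ± 0.02 (edgeR adjusted p = 0.007). *Nbr1*, *Optn* and *Tax1bp1* stood at 0.03 ± 0.02, 0.01 ± 0.03 and -0.02 ± 0.02 and did not pass the test.

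Both Foxo genes were higher in IP after ethanol, and *Foxo3* had the smallest adjusted p of the 41 genes. *Foxo3* had 227, 233 and 238 CPM in IP control and 255, 257 and 269 CPM in IP ethanol. The groups were well apart, and its log2 change was 0.16 ± 0.02 (edgeR adjusted p = 9.24e-08). *Foxo1* rose by 0.09 ± 0.03 (edgeR adjusted p = 0.00785), with no overlap, from 59.8 ± 1.57 to 63.4 ± 0.668 CPM (SD, n = 6), and lost its call without IP control 1 (0.0582). Of the mTOR and Tsc genes, *Rptor*, the subunit that brings substrates to mTOR complex 1, passed the test. It had 85.6, 87.7 and 90.1 CPM in IP control and 92.0, 93.6 and 96.6 CPM in IP ethanol, without overlap, a log2 change of 0.10 ± 0.02 (edgeR adjusted p = 0.00112). *Mtor* itself had 64.3, 66.6 and 67.7 against 60.6, 63.5 and 68.1 CPM, with a log2 change of -0.05 ± 0.03 that did not pass the test (edgeR adjusted p = 0.225). *Tsc1* and *Tsc2* stood at 0.04 ± 0.03 and 0.06 ± 0.02 (edgeR adjusted p = 0.335 and 0.0577). In the strand-specific counts 12.9% of the pairs on *Tsc2* lay on the opposite strand, where it overlaps *Pkd1*. The unstranded count of *Tsc2* was 98.4% of that on its own strand.

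Some of these calls changed with the libraries used, or when GC content and transcript length were taken out together. Of the 16 genes called higher, 10 remained called in dishes 1 to 3 alone and 10 in dishes 4 to 6 alone, and all 16 had positive values in each. Across the 41 genes, the log2 change in IP had a Spearman correlation of 0.338 with transcript length, and 0.263 over 13435 genes at a mean of at least 1 CPM, with the same libraries behind all points. With GC content it was 0.254, against 0.0472 over those genes. With both taken out in each library, 11 of the 41 genes were higher and 2 lower, against 2615 and 2743 of the 24495 genes tested. The share among the genes at the level of the members was not computed for that fit. *Ambra1*, *Calcoco1*, *Foxo1*, *Pik3r4*, *Rptor* and *Atg3* lost their calls. In that fit *Ulk1* stood at 0.11 ± 0.02 (edgeR adjusted p = 0.000187) and *Foxo3* at 0.11 ± 0.02 (4.8e-06). *Mtor* at -0.12 ± 0.02 (7.75e-05) and *Uvrag* at -0.06 ± 0.02 (0.0439) passed the test as lower. *Mtor* had -0.12 ± 0.04 in dishes 1 to 3 and 0.01 ± 0.04 in dishes 4 to 6.

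Some cell type markers were called after ethanol as well. Over all genes tested, 11.9% were higher and 9.48% lower in IP, and 7.21% and 7.78% in input. Among the 9352 genes at the level of the members, these shares were 23.8% and 18.1% in IP, and 15.5% and 16.6% in input. Of 12 astrocyte markers, 5 were called higher and 0 lower in IP, where their summed level went from 1955 to 2048 CPM in control libraries to 2094 to 2190 CPM in ethanol libraries. In input the sums were 1265 to 1315 and 1326 to 1352 CPM, with 5 markers higher and 3 lower. Those lower in input were *Aldh1l1*, whose promoter drives the tag, *Aldoc* and *Gfap*. Of 12 microglia markers, 2 were higher in each fraction, with sums of 71.9 to 77.5 and 79.9 to 86.1 CPM in IP. Of 11 endothelial and mural markers tested, 3 were lower in IP (*Acta2*, *Tagln* and *Kdr*). Their summed level, 1638 to 1772 CPM in IP control and 1060 to 1257 CPM in IP ethanol, was mostly that of the smooth muscle actin gene *Acta2*, with means of 1589 and 1069 CPM. *Pdgfrb*, at means of 94.5 and 92.6 CPM, and *Flt1*, at 5.73 and 5.97 CPM, did not pass the test. In oligodendrocyte lineage markers 3 were higher and 1 lower in IP, in neuron markers 0 and 1, and in fibroblast and meningeal markers 1 and 1. *Pdgfra*, called higher, is on both the oligodendrocyte lineage and the fibroblast list and is counted in each. The part of these shifts in the changes of the autophagy and mTOR genes was not tested.

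In the input fraction, with 3 dishes in each group, initiation genes were again among those that rose. Of the 41 genes, 11 were higher and 1, again *Atg3*, was lower (edgeR's quasi-likelihood test, Benjamini-Hochberg adjusted p below 0.05), against 7.21% and 7.78% of all genes tested. Among the 9352 genes at the level of the members, 15.5% were higher and 16.6% lower. The median log2 change of the 41 was 0.02, against 0.00 over those genes. In 14 genes all 3 ethanol libraries lay above all 3 controls and in 2 (*Atg3* and *Mtor*) all lay below, where 14% and 13.1% of all genes did so. Here too the share is over all genes tested, without matching for expression level. The input and IP libraries of dishes 4 to 6 share their dishes, so the fractions are set side by side and not counted as independent evidence. Higher in both fractions were 9 genes, in IP alone 7, in input alone 2 (*Atg12* and *Atg14*), and 22 passed the test in neither.

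*Ulk2* had the clearest rise in input, from 83.4, 82.2 and 84.2 CPM in the control libraries to 92.4, 96.1 and 92.9 CPM in the ethanol libraries. The groups were apart, and its log2 change was 0.17 ± 0.03 (edgeR adjusted p = 2.73e-08). *Wipi1* had 155.7, 159.7 and 158.9 CPM against 167.7, 174.9 and 174.2 CPM, also apart, a log2 change of 0.12 ± 0.02 (edgeR adjusted p = 9.11e-06). *Gabarapl1* went from 229, 233 and 226 CPM to 240.2, 251 and 249.7 CPM, a rise of 0.10 ± 0.02 (edgeR adjusted p = 0.000175). *Foxo3* had 199.3, 199 and 206 CPM in control and 216, 220.0 and 211 CPM in ethanol, and *Atg13* had 69.9, 72.9 and 69.2 against 77.3, 76.1 and 76.5 CPM. Neither overlapped, with log2 changes of 0.10 ± 0.02 and 0.11 ± 0.03 (edgeR adjusted p = 0.000595 and 0.00116). *Atg14* rose by 0.16 ± 0.04 (edgeR adjusted p = 0.000644), from 30.7 ± 1.73 to 34.5 ± 0.762 CPM, and *Atg12* by 0.11 ± 0.03 (0.00134), from 84.1 ± 1.14 to 90.8 ± 0.333 CPM (SD, n = 3). *Atg3* fell by 0.10 on the log2 scale (SE 0.03, edgeR adjusted p = 0.00345), with 79.0, 79.0 and 79.1 CPM in control and 74.7, 72.9 and 74.0 CPM in ethanol. *Foxo1* and *Rptor*, which passed the test in IP, stood at 0.01 ± 0.03 and 0.00 ± 0.03 in input, and *Ulk1* at 0.07 ± 0.03 (edgeR adjusted p = 0.0615), with its ethanol libraries (76.3, 76.8 and 74.4 CPM) above its controls (71.3, 73.1 and 71.1 CPM).

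The calls of *Pik3c3* (0.09 ± 0.03), *Atg2b* (0.11 ± 0.04), *Rb1cc1* (0.10 ± 0.03), *Sqstm1* (0.06 ± 0.02) and *Atg14* in input were each lost in at least 1 fit that left out a library. *Sqstm1* lost its call without input control 4, 5 or 6 or input ethanol 5 or 6, with an edgeR adjusted p of up to 0.299. *Atg2b* lost it without input control 4, 5 or 6 or input ethanol 6 (up to 0.142), and *Pik3c3* without input control 4 or input ethanol 4 or 6 (up to 0.202). *Rb1cc1* lost it without input control 4 (0.0873) and *Atg14* without input control 6 (0.0589). With GC content and length taken out, 10 genes were higher and 1 lower in input, and *Rb1cc1*, at 0.05, lost its call (edgeR adjusted p = 0.251). *Sqstm1* also lost its call with no filter beyond 1 read pair (0.0565) and with a mean of at least 1 CPM (0.0564). Without input control 4, 7 of the 41 genes were called higher.

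Whether ethanol acted differently in the fractions was tested as an interaction, and none of the 41 genes passed. Over the 18 libraries the largest difference was that of *Atg9a*, whose log2 change was 0.14 ± 0.05 greater in IP than in input (edgeR adjusted p = 0.759), and 3 of the 41 genes had an unadjusted p below 0.05. The other 2 were *Ulk1*, with a difference of 0.09 ± 0.04, and *Rptor*, also with 0.09 ± 0.04 (edgeR adjusted p = 0.83 for each). With the dish as a block, *Ulk1* had 0.13 ± 0.04 and *Rptor* 0.10 ± 0.04, and with GC content and length also taken out, 0.05 ± 0.04 and 0.02 ± 0.04 (edgeR adjusted p = 0.914 and 0.986). *Atg9a* had 29.7, 33.4 and 32.0 CPM in input control and 31.2, 32.0 and 32.5 CPM in input ethanol, with overlap, and an input log2 change of 0.00 ± 0.04. When the dish was a block, over the 12 libraries whose dish has both fractions, 0 of the 41 genes passed, 6 had an unadjusted p below 0.05, and the lowest edgeR adjusted p was 0.127, again that of *Atg9a* (0.19 ± 0.06). That fit called 0.416% of all genes tested, and DESeq2 over the 18 libraries called 0 of the 41, with 6 at an unadjusted p below 0.05.

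More of the genes differed between IP and input than between control and ethanol. Of the 41 genes, 28 were higher and 7 lower in IP than in input over the 18 libraries (edgeR's quasi-likelihood test with a term for treatment, Benjamini-Hochberg adjusted p below 0.05), where 25.2% and 25.8% of all genes tested were. Among the 9352 genes at the level of the members, 49.7% were higher and 30.6% lower. The median log2 fold change of IP against input was 0.12 for the 41 genes and 0.06 for those genes.

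**Figure D4:**
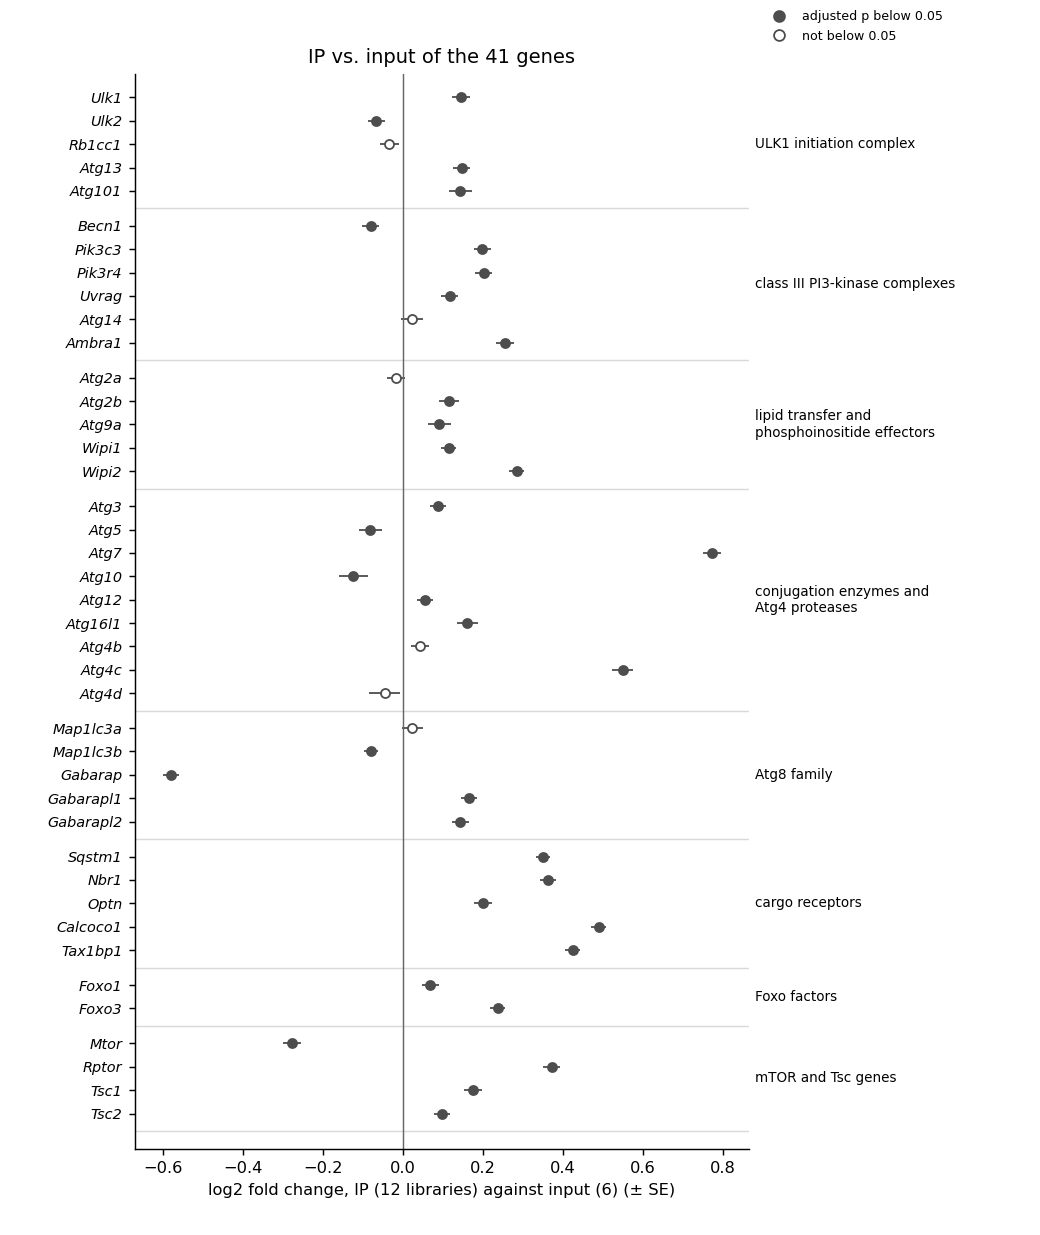
Log2 fold change of IP (12 libraries) against input (6 libraries), ± SE (x axis), of the 41 genes by role. Filled points have an adjusted p below 0.05. *Atg7* lies farthest to the right at 0.77 and *Gabarap* farthest to the left at -0.58, and all 5 cargo receptors are on the right.

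All 5 cargo receptors were higher in IP, and in each the IP and input libraries did not overlap. Of the 41 genes, 17 had all IP libraries above all input libraries and 4 had all below. The share of all genes without such overlap was not computed for IP vs. input. *Calcoco1* had 316 to 333 CPM in IP control, 325 to 349 CPM in IP ethanol and 231 to 238 CPM in the 6 input libraries, a log2 difference of 0.49 ± 0.02 (edgeR adjusted p = 2.39e-35). *Tax1bp1* stood at 0.43 ± 0.02, *Nbr1* at 0.36 ± 0.02, *Sqstm1* at 0.35 ± 0.02 and *Optn*, a receptor in mitophagy, at 0.20 ± 0.02. The largest difference was that of *Atg7*, with 73.9 to 81.1 CPM over both IP groups and 44.1 to 46.1 CPM in input. Its log2 value was 0.77 ± 0.02 (edgeR adjusted p = 1.15e-42), and 0.88 ± 0.02 on counts of its own strand. The protease *Atg4c*, with 38.7 to 42.9 CPM in IP and 26.9 to 28.6 CPM in input, had 0.55 ± 0.03 (edgeR adjusted p = 1.37e-29). *Rptor* (0.37 ± 0.02), *Wipi2* (0.29 ± 0.02), *Ambra1* (0.26 ± 0.02) and *Foxo3* (0.24 ± 0.02) were also higher in IP, each without overlap.

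The Atg8 genes split between the fractions. *Gabarap* had 322 to 372 CPM over the 12 IP libraries, 540.5, 524 and 519.8 CPM in input control and 528, 497 and 510.1 CPM in input ethanol. The fractions were far apart, and *Gabarap* was 33.1% lower in IP, where its log2 value was -0.58 ± 0.02 (edgeR adjusted p = 8.9e-39). *Map1lc3b* was slightly lower at -0.08 ± 0.02, *Gabarapl1* and *Gabarapl2* were higher at 0.17 ± 0.02 and 0.14 ± 0.02, and *Map1lc3a* did not pass the test (0.02 ± 0.03). *Mtor* was lower in IP, with 60.6 to 68.1 CPM against 79.0, 80.1 and 81.3 CPM in input control and 78.4, 78.4 and 75.5 CPM in input ethanol, and a log2 value of -0.28 ± 0.02 (edgeR adjusted p = 2.26e-18). Its partner *Rptor* and its inhibitors *Tsc1* (0.18 ± 0.02) and *Tsc2* (0.10 ± 0.02) were higher. The remaining genes lower in IP were *Atg10* (-0.12 ± 0.04), *Atg5* (-0.08 ± 0.03), *Becn1* (-0.08 ± 0.02) and *Ulk2* (-0.07 ± 0.02). *Atg10* overlapped between fractions, at 13.0 to 15.8 CPM in IP and 15.2 to 16.5 CPM in input. The calls of *Ulk2* and *Atg12* (0.06 ± 0.02) were lost over the 12 libraries of dishes 4 to 6, whether or not the dish was a block. *Atg12* also lost its call without input control 5 or IP ethanol 1, *Atg5* without input ethanol 6 and *Atg9a* without input ethanol 4. Scaled by total counts, *Foxo1* (0.02), *Atg3* (0.04), *Atg9a* (0.04) and *Atg12* (0.00) did not pass the test, and with a mean of at least 1 CPM neither did *Foxo1* (0.04), *Atg9a* (0.06) and *Atg12* (0.02).

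Genes that surround the 41 in the pathway were counted from 9 lists written by known function, with earlier results of these data known. Their shares describe the lists and are not independent evidence. Of 124 such genes, 44 (35.5%) were higher and 11 (8.87%) lower in IP after ethanol (edgeR's quasi-likelihood test), and 30 (24.2%) and 7 (5.65%) in input. Over all genes tested the shares were 11.9% and 9.48% in IP and 7.21% and 7.78% in input, and over the 9352 genes at the level of the members 23.8% and 18.1% in IP and 15.5% and 16.6% in input. The median log2 change of the 124 in IP was 0.05. In 6 of the 9 lists 20.0% to 31.0% of the genes were higher in IP, within 10 percentage points of the 23.8%, and the other 3 were the mTOR targets, the TFEB family and the Foxo list. The list of the energy sensor AMPK and of stress inputs to Tsc gave 3 higher and 1 lower of 11 genes. Among them were the catalytic AMPK gene *Prkaa2* at 0.17 ± 0.04 (edgeR adjusted p = 0.00495) and the regulatory *Prkag1* at -0.09 ± 0.03 (0.0464). Genes of amino acid sensing at the lysosome gave 9 higher and 6 lower of 29. *Sesn3*, a leucine sensor family member and a Foxo target, rose from 385 to 457 CPM on average, a log2 change of 0.25 ± 0.03 (edgeR adjusted p = 1.96e-10), and *Slc38a9* and *Wdr24* rose by 0.19 ± 0.04 and 0.19 ± 0.03. Of the other mTOR complex subunits, Rheb and Akt genes, 3 of 15 were higher, with *Pdpk1*, the kinase that activates Akt, at 0.10 ± 0.03, and 1, *Akt1*, was lower.

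For the lists that follow, the shares of the 9352 genes at the level of the members were 23.8% higher and 18.1% lower in IP. Downstream of mTOR, 4 of 8 target genes were higher in IP and 0 lower. They were led by the translation factor *Eif4b* (0.14 ± 0.02) and the translation repressors *Eif4ebp2* (0.11 ± 0.02) and *Eif4ebp1* (0.11 ± 0.03). Other autophagosome genes gave 3 higher and 0 lower of 13, with *Atg9b* at 0.29 ± 0.07, *Zfyve1* at 0.11 ± 0.02 and *Tecpr1* at 0.10 ± 0.03. Genes of autophagosome-lysosome fusion gave 4 higher and 2 lower of 15. The adaptor *Plekhm1* stood at 0.19 ± 0.03 and the SNARE *Stx17* at 0.10 ± 0.03, while the small GTPase gene *Rab7* fell by 0.10 on the log2 scale (SE 0.02). Receptors of mitophagy and ER-phagy gave 3 higher and 1 lower of 12, with *Rtn3* at 0.16 ± 0.02, *Fkbp8* at -0.11 ± 0.03 and *Retreg1* at 0.09 ± 0.03.

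The transcription factors of the pathway were among the clearest neighbors. Besides *Foxo1* and *Foxo3*, the list of 17 other Foxo factors and textbook Foxo target genes had 12 higher and 0 lower in IP, and 9 higher and 0 lower in input. Among the 9352 genes at the level of the members, 23.8% were higher in IP and 15.5% in input. Like the other lists, this list was chosen with earlier results of these data known. *Foxo4* rose from a mean of 67.6 to 81.3 CPM in IP (0.27 ± 0.03, edgeR adjusted p = 1.69e-12), *Foxo6*, at 2.67 to 3.44 CPM, by 0.37 ± 0.08 (0.000399), and *Pdk4*, the kinase that restrains pyruvate oxidation, by 0.23 ± 0.04 (8.6e-07). Of the TFEB family, *Mitf* (0.15 ± 0.05), *Tfeb* (0.13 ± 0.04) and *Tfe3* (0.08 ± 0.02) were higher in IP, 0 of the 4 genes passed the test in input, and the difference between the fractions was not tested for them. *Tfec* was barely expressed, at means of 0.212 to 0.234 CPM in IP.

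**Figure D5:**
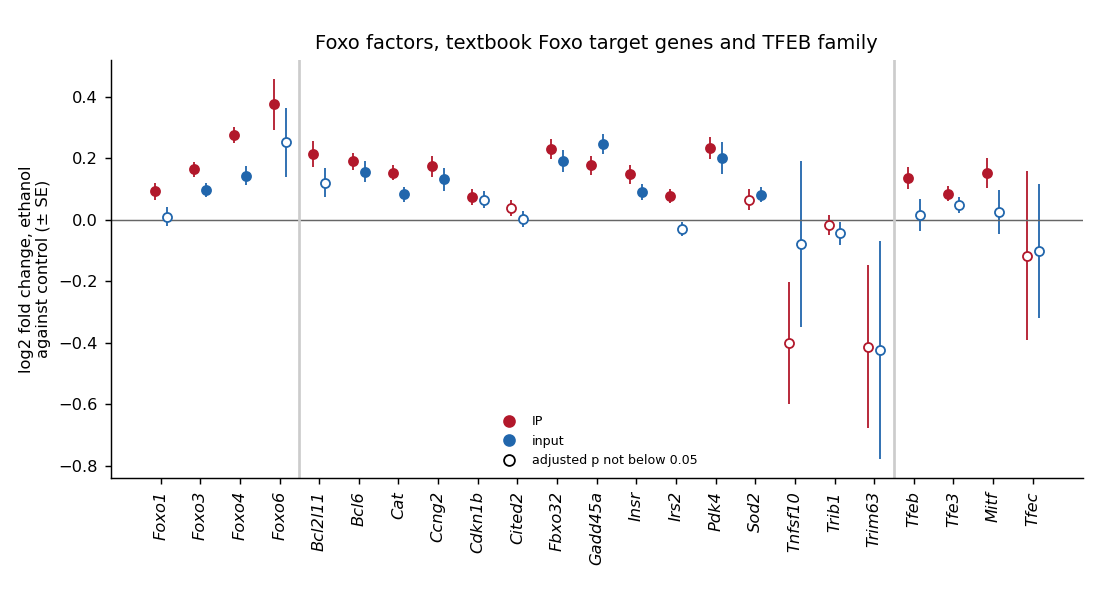
Log2 fold change (y axis, ethanol against control, ± SE) of the Foxo genes, textbook Foxo target genes and the TFEB family in IP (red) and input (blue). Open points have an adjusted p not below 0.05. All 4 Foxo genes are filled above 0 in IP, and the open points with wide bars (*Tnfsf10*, *Trim63* and *Tfec*) are genes with few reads.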

How the data were processed

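Per the labels and the study's methods, reads were trimmed by Trimmomatic and mapped by STAR on GRCm38, and the authors deposited raw counts of read pairs per gene, without normalization or pooling; tool versions are not given in the sources used here. The deposited table of unstranded counts of all 18 libraries equals the single-library counts (0 differences) and was used throughout. Multimapped pairs (3.6% on average) and those overlapping several genes (5.5%) were left out of the counts. Authors' means or fold changes were not used.

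The 24495 genes whose 18 libraries held 10 or more pairs in sum were tested by edgeR 4.0.16 in R 4.3.3 (TMM, estimateDisp, robust glmQLFit and glmQLFTest), with Benjamini-Hochberg adjustment over all genes and a threshold of 0.05. Ethanol was tested within the 12 IP and within the 6 input libraries, IP vs. input over 18 with a term for treatment, and the difference of the ethanol effects as an interaction. The SE is the absolute log2 fold change divided by the square root of F. DESeq2 1.42.0, other scalings, filters, counts of the sense strand, a fold threshold and left-out libraries were alternatives. On simulated counts for the 24495 genes, 50 genes were changed by 1.25-fold in each comparison. In IP 100% of them were recovered, in input 88%, in IP vs. input 98% and in the interaction 92%. Recovery of smaller changes was not tested. Among the autophagy and mTOR control genes, the largest ethanol rise in IP was 1.13-fold (*Ulk1*). Their largest interaction difference over the 18 libraries was 1.10-fold (*Atg9a*). These shares therefore do not say how many ethanol or interaction effects of that size were missed.

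FPKM was computed here from CPM and the longest GENCODE M21 transcript. Of the listed genes, 4 were found under an older symbol. Promoter windows are RefSeq's (GRCm38.p6).

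The members and all gene lists were chosen with earlier results of these data known. All 41 genes are reported. Values per library are given for the 8 with the smallest adjusted p in IP, the smallest of each role, and the 3 largest rises and falls in IP vs. input. The values of some genes in the surrounding and marker lists are not reported here, and at most 3 genes are named per surrounding list, beside the Foxo and TFEB genes plotted. IP and input libraries of a dish are paired by the labels (correlation of deviations from group means 0.0191 to 0.153 over 6 pairs), whereas between treatments only the numbers match.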

Additional observations from a re-analysis of the deposited data

Results flagged for a closer look

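In 2 of the 82 sets of 6 IP libraries (41 genes in 2 groups), a single library lay far from the others by the gap between it and its nearest neighbor as a share of the whole range. *Wipi2* had 180.2 CPM in IP control 3, where the nearest of the other 5 libraries had 175.9 and the lowest 173.4 CPM. *Atg13* had 90.4 CPM in IP ethanol 3, where the nearest had 85.6 and the lowest 83.9 CPM. By chance about 1 in 20 such sets would stand out, and the 2 values came from different libraries. *Atg13* remained called higher in IP in each of the 22 alternatives other than the 1.2-fold test, those without a library included.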

How the results depend on the processing

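No called value of the 41 genes changed its sign in any alternative. In IP, 9 of the 17 calls held in all 22 alternatives other than the fold test (*Atg13*, *Atg2b*, *Foxo3*, *Gabarapl1*, *Rb1cc1*, *Sqstm1*, *Ulk1*, *Ulk2* and *Wipi1*), in input 7 of 12 over 14 and in IP vs. input 29 of 35 over 26. Against a fold change of 1.2, 0 genes were higher and 0 lower for ethanol in IP and in input, and 7 and 1 in IP vs. input. Over all 24495 genes tested, that test called 38 higher and 57 lower in IP, 8 and 47 in input, and 1910 and 3026 in IP vs. input. The number lower in IP was 3 with DESeq2 or a mean of at least 1 CPM, and 2 with RLE size factors, with no filter beyond 1 read pair, on sense strand counts, in replicates 4 to 6 alone (10 higher) and with the GC and length offset. With the replicate number as a block, 17 were higher and 2 lower in IP and 12 and 1 in input. The numbers of control and ethanol dishes do not pair them (correlations of -0.104 to 0.221 in IP), and IP vs. input with the dish as a block gave 27 and 6. Leaving out 1 library gave 13 to 17 higher and 0 to 2 lower in IP, 7 to 10 and 1 to 2 in input, 27 to 29 and 6 to 7 in IP vs. input and 0 to 0 for the interaction. Scaling by total counts gave 24 higher and 10 lower in IP vs. input. The median level in IP control was 14.8 FPKM, and 11.996 on merged exon lengths. The causes of these differences were not tested. A comparison of Atg8 proteins was not run.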
